A study of Mus musculus with 53 samples.

Results

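The tumours described here grew in the lungs of Lkb1-deficient (KLTC) mice and were measured either 9 or 15 weeks after they were started. At 9 weeks the tumours carried a single lentiviral vector, which was the inert sgNeo vector in 5 mice or the sgSetd2 vector (sgSetd2#2 in the labels) in 7 mice. At 15 weeks 13 KLTC mice had received a mixture of vectors aimed at 11 tumour suppressors, with inert controls, and only the tumours listed as Inert or as Setd2 in those mice were used. These choices select 36503 listed tumours in 25 mice, out of 409584 listed tumours in all 53 mice of the series. They comprise 8414 inert tumours at 9 weeks, 12177 inert tumours at 15 weeks, 12738 Setd2-targeted tumours at 9 weeks and 3174 Setd2-targeted tumours at 15 weeks.

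By the usual naming of such strains, L is an allele of Lkb1 that Cre deletes, T a reporter that makes recombined cells fluorescent and C an allele of Cas9. The genotype labels are KLTC for the pool mice, KLTC-Neo for the sgNeo mice and KLTC-Setd2 for the sgSetd2 mice, so all 25 mice share the KLTC alleles, and loss of Lkb1 is part of the design at both times. Cre came with the lentivirus, which was delivered through the trachea, so the infected cells of the lung carry the changes. The labels name the cells as lung epithelium on the way to adenocarcinoma, and this could not be checked against marker genes because barcodes, not expression, were sequenced. The age and sex of the mice, the dose of virus and the number of Setd2 sgRNAs in the pool are not stated in the sources used here. The design of the 2 times therefore differs in more than time: 1 sgRNA per mouse at 9 weeks, a share of a pool at 15 weeks, and different mice at each time. Time and vector format cannot be told apart in these data.

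Lkb1 (gene symbol Stk11) encodes a kinase that activates AMPK and related kinases, which restrain growth when energy is short. It is a tumour suppressor often lost in lung adenocarcinoma, and its deletion accelerates lung tumours in mouse models. Setd2 encodes the methyltransferase that places the trimethyl mark on lysine 36 of histone H3 along transcribed genes, and it too is a tumour suppressor in the lung. An inert sgRNA cuts a neutral sequence or nothing, so the inert tumours show the growth that the genotype itself gives. In tumour barcoding with ultra-deep sequencing (Tuba-seq), each vector carries a random barcode next to its sgRNA label. All cells of a tumour inherit that barcode, and its abundance in the DNA of the whole lung gives the number of cells in the tumour.

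The barcodes of the largest tumour of each vector and time show what a single tumour looks like in these data. Each has 21 bases, and the capitals mark the letters that are fixed in the barcode. Of all listed tumours in the series, 91.2% carried a barcode of this form.
sgNeo, 9 weeks, replicate 5: AAaagtcTTcggtcAAggctg
inert, 15 weeks, pool replicate 10: AAaggatTTtcatgAAttatg
sgSetd2, 9 weeks, replicate 2: AActatcTTacggtAAgtaga
Setd2, 15 weeks, pool replicate 4: AAtccacTTcattaAAccggg
The first tumour held 2.12e+06 cells, the second 1.25e+07 cells, the third 1.50e+07 cells and the fourth 3.43e+06 cells. None of these barcodes was listed in a single mouse only. The same sgRNA label and barcode appeared in 9, 16, 7 and 26 other mice of the series, in that order. The largest of those other listings were 139487, 139654, 549397 and 16424 cells, so the named tumour was 15.2, 89.3, 27.2 and 209 times the size of its largest other listing.

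Such shared barcodes were common and bear on every size below. Tumours whose target label and barcode were listed in another mouse made up 76.0% of the inert tumours at 9 weeks and 63.9% of those at 15 weeks. For Setd2-targeted tumours they made up 79.5% at 9 weeks and 77.9% at 15 weeks. Among tumours of at least 100000 cells the shared part was 97.3%, 95.1%, 94.1% and 95.9%, and 96.9%, 98.8%, 96.3% and 98.5% of all such tumours were the largest listing of their barcode in any mouse. A large tumour was thus nearly always listed again, at a smaller size, in other mice. In some pairs of mice the smaller listings sat at a nearly constant fraction of the larger ones. All 97 tumours of at least 100000 cells in sgSetd2 replicate 3 were listed in replicate 1 of the p53-deficient (KPTC) mice given sgSetd2, at a median of 5.64-fold smaller (interquartile range 5.17 to 6.34). Of the same 97 tumours, 96 were listed in KLTC sgSetd2 replicate 1, at a median of 16.7-fold smaller (15.0 to 19.6). Of 182 such tumours in sgSetd2 replicate 2, 181 were listed in that same replicate 1, at a median of 25.9-fold smaller (22.8 to 29.8). All 188 such tumours of sgNeo replicate 5 were listed in replicate 1 of the KPTC mice given sgNeo, at a median of 45.6-fold smaller (39.5 to 55.4). These pairs of mice were chosen after their values were seen. Every pair was also taken in which at least 50% of at least 20 such tumours of a mouse were listed again. At 9 weeks the upper quartile of the size ratio was 1.24 to 2.52 times the lower for sgNeo (10 pairs) and 1.23 to 7.78 times for sgSetd2 (18 pairs). For tumours of the 15-week pool mice it was 1.15 to 2.15 times for inert (40 pairs) and 1.19 to 4.94 times for Setd2 (41 pairs). Why barcodes recur was not tested.

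**Figure D1:**
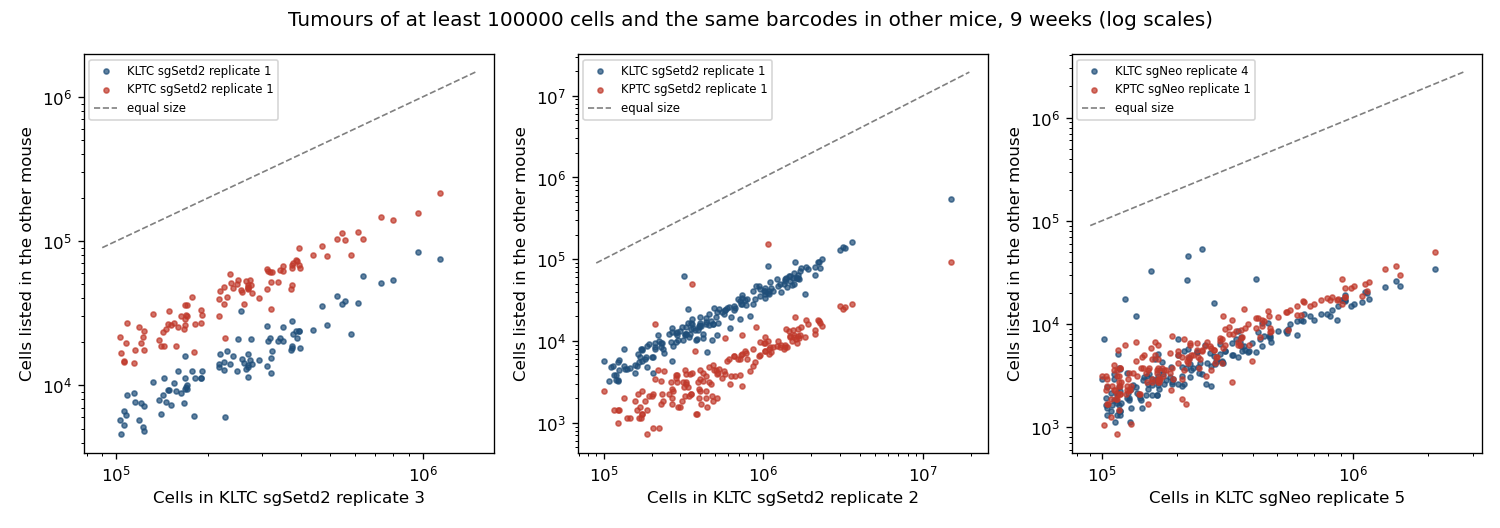
Size of each tumour of at least 100000 cells in 3 KLTC mice at 9 weeks (x axis, cells, log scale). The y axis gives the size listed for the same target label and barcode in another mouse (cells, log scale), 1 point per barcode. In each panel most points lie along lines parallel to the dashed line of equal size and below it, as for the 97 tumours of sgSetd2 replicate 3 at 5.64-fold and 16.7-fold smaller; the pairs of mice were chosen after their values were seen.

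Sharing also differed between groups and between mice of a group. The 2 letters that open a mouse's name were ZR in all 5 sgNeo mice, in 6 of the sgSetd2 mice and in 6 of the pool mice, and IW in 1 sgSetd2 mouse and 7 pool mice. Their meaning is not stated in the sources used here. A sgNeo mouse had between 47.0% and 82.2% of its barcodes listed in at least 1 other KLTC sgNeo mouse, but only 4.51% to 5.75% in any KLTC pool mouse. The letters did not set the sharing apart within the KLTC pool. Replicate 7, an IW mouse, had 36.8% to 49.7% of its inert barcodes listed in each of the 6 ZR pool mice, and 0.585% and 1.17% in IW replicates 1 and 3. For Setd2 the percent of overlap between the times depended on whose barcodes formed the base. Pool mice had 9.30% to 74.1% of their Setd2 barcodes (median 51.5%) listed in a KLTC sgSetd2 mouse, whereas sgSetd2 mice had 3.65% to 12.1% of theirs in a KLTC pool mouse. The bases differ in length, with 43 to 1033 Setd2 barcodes in a pool mouse and 462 to 3332 in a sgSetd2 mouse. The 2 percents therefore do not show a one-way property of the barcodes. Since a shared barcode at a small size adds a small listed tumour, the differences between the times were also computed with only the largest listing of every barcode kept, a setting chosen after the sharing was seen.

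**Figure D2:**
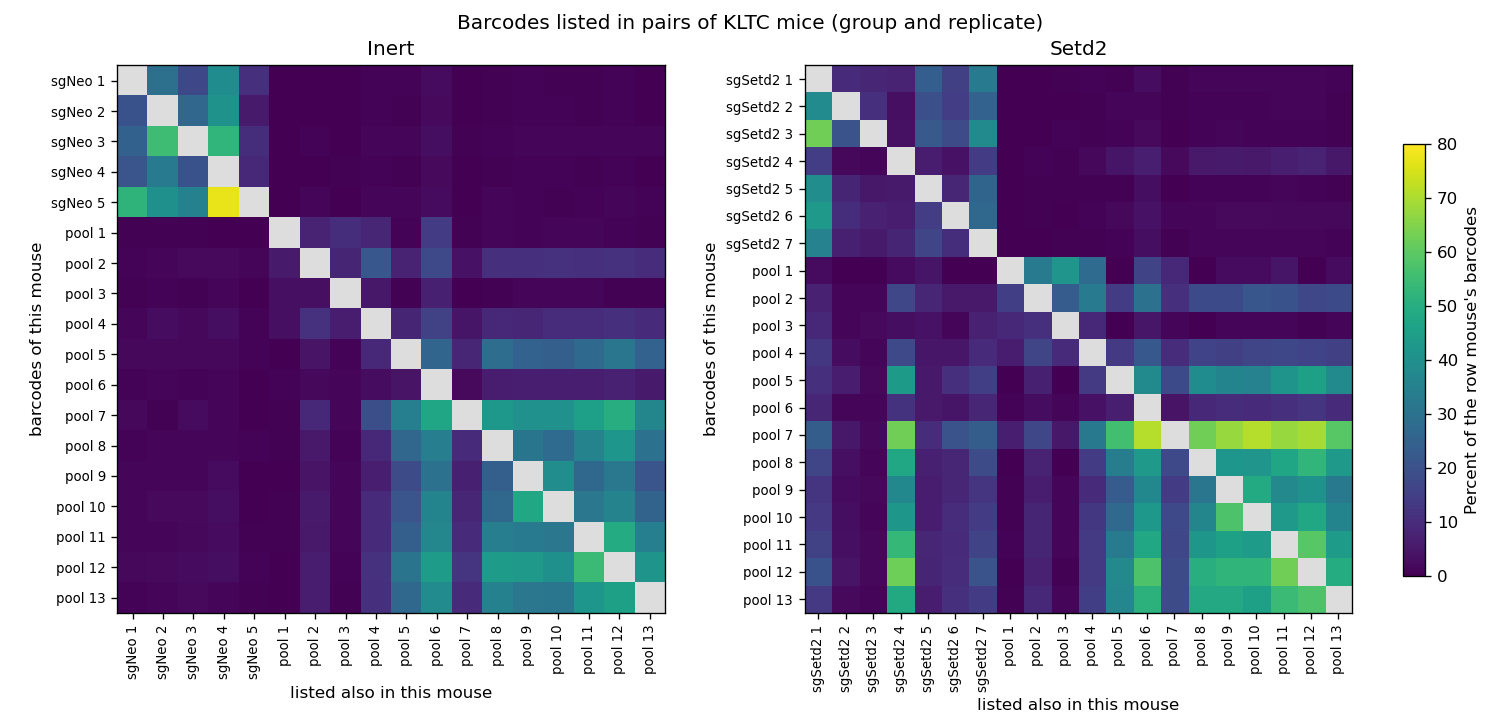
Percent of the barcodes of 1 KLTC mouse (row) that were also listed in another KLTC mouse (column), for inert vectors (left) and Setd2 vectors (right), with replicates numbered within each group. The sgNeo mice share barcodes among themselves and hardly with KLTC pool mice. Pool replicates 8 to 13 (names opening with ZR) share with each other and with replicates 5, 6 and 7 (IW). Replicate 6 listed 29.7% to 44.2% of the inert barcodes of each of replicates 8 to 13, which in turn each listed 5.80% to 7.34% of its own. Of the inert barcodes of replicates 5 and 7, each of replicates 8 to 13 listed 24.2% to 49.7%. The sgSetd2 replicate 4 holds many Setd2 barcodes of pool replicates 5 and 7 to 13.

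The mice differed in the number of listed tumours of each target. The depth of the libraries cannot be given, because reads are not in the table. The sgNeo mice had 337 to 2962 inert tumours (median 1618), the pool mice 171 to 4279 inert tumours (median 751), the sgSetd2 mice 462 to 3332 Setd2-targeted tumours (median 1813) and the pool mice 43 to 1033 (median 202). The smallest listed size in a mouse was 500.4 to 540 cells for sgNeo, 516 to 956 cells for sgSetd2 and 501 to 611 cells for the pool, so smaller tumours are outside what each library lists. A high percentile rests on few tumours where few are listed. A largest tumour is found more easily among more tumours. For that reason the expected largest of 50 tumours drawn from each mouse was computed beside the largest listed tumour.

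Between 9 and 15 weeks the inert, Lkb1-deficient tumours differed in 2 of the measures of their upper end. The 99th percentile of size over the median was 14.2 times as high at 15 weeks, and the largest tumour of a mouse was 16.4 times as large. The 99th percentile itself, the tail above 10000 cells and the expected largest of 50 tumours missed the threshold, as did the median, the log-normal mean and the 95th percentile, and some of these passed under other settings given below. The spread was itself widest at 9 weeks, where a single mouse, sgNeo replicate 5, had a median and a 95th percentile above those of all 13 pool mice.

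The median inert tumour in the 5 sgNeo mice held 951, 1018, 825, 1328 and 115533 cells, in replicates 1 to 5. In the 13 pool mice at 15 weeks the median ranged from 753 to 2848 cells, with a middle value of 1235 cells. The medians of replicates 1 to 4 thus lay inside the range of the pool mice, and replicate 5 lay far above all of them. On the log2 scale the mean median was 11.35 ± 3.07 (SD, n = 5) at 9 weeks and 10.25 ± 0.50 (SD, n = 13) at 15 weeks, a difference of -1.10 ± 1.38 (SE; exact two-sided permutation test, adjusted p = 0.431). Without replicate 5 this difference was 0.27.

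At the 95th percentile the sgNeo mice had 79268, 5047, 4219, 32786 and 833354 cells, and the pool mice 8260 to 447024 cells with a middle value of 99086 cells. Replicates 2 and 3 lay below all pool mice and replicate 5 above all of them. The difference was 1.41 ± 1.52 on the log2 scale (exact permutation test, adjusted p = 0.459). The log-normal mean, the mean of a log-normal distribution with the log sizes of a mouse, was 13249, 1630, 1339, 5931 and 472495 cells in the sgNeo mice and 1823 to 70047 cells in the pool mice. Its difference was 0.18 ± 1.62 (exact permutation test, adjusted p = 0.912), and leaving out 1 mouse moved it between -0.53 and 1.58.

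The 99th percentile was 155172, 9130, 8261, 85391 and 1.28e+06 cells at 9 weeks and ranged from 54009 to 1.90e+06 cells at 15 weeks (middle value 541046 cells). Again replicates 2 and 3 were below every pool mouse, and replicate 5 was above all pool mice but 2. The difference of 2.73 ± 1.44 had an unadjusted p of 0.0235 and missed the threshold after adjustment over the 22 tests (exact permutation test, adjusted p = 0.103). Without sgNeo replicate 5 it was 3.80 (exact permutation test, adjusted p = 0.0231).

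Divided by the median of the same mouse, the 99th percentile separated the times more clearly. It was 163, 8.97, 10.02, 64.3 and 11.04 times the median in the sgNeo mice and 45.8 to 1823 times the median in the pool mice (middle value 435). Of the 13 pool mice, 10 exceeded all 5 sgNeo mice. The difference was 3.83 ± 0.95 on the log2 scale, 14.2-fold (exact two-sided permutation test, p = 0.000817, adjusted p = 0.0180; the smallest p that 5 against 13 mice can give is 0.000117). Replicate 5, whose median and 99th percentile were both high, lay below every pool mouse on this ratio, as did replicates 2 and 3. For the 95th percentile over the median the difference of 2.51 ± 0.93 missed the threshold (exact permutation test, adjusted p = 0.0982). It passed without pool replicate 6 (2.80), among ZR mice alone (3.53), with only the largest listing of each barcode (2.88) and at minimum sizes of 1000, 1500 and 5000 cells (3.49, 3.40 and 1.85), with adjusted p from 0.00128 to 0.0476 by the exact permutation test.

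The largest inert tumour held 235323, 21118, 13113, 340825 and 2.12e+06 cells in the sgNeo mice and 198662 to 1.25e+07 cells in the pool mice (middle value 2.36e+06 cells). Of the 13 pool mice, 7 exceeded every sgNeo mouse, and sgNeo replicates 2 and 3 lay below every pool mouse. The mean was 17.06 ± 3.03 (SD, n = 5) at 9 weeks and 21.10 ± 1.80 (SD, n = 13) at 15 weeks, a difference of 4.04 ± 1.44 on the log2 scale, 16.4-fold (exact permutation test, p = 0.00362, adjusted p = 0.0398). The sgNeo mice had more listed inert tumours per mouse than the pool mice in the middle of their ranges, 1618 against 751. Scaled to 50 tumours, the expected largest was 132719, 8332, 7458, 76439 and 1.26e+06 cells at 9 weeks and 40312 to 1.33e+06 cells at 15 weeks. That difference was 2.60 ± 1.45, 6.08-fold, and missed the threshold (exact permutation test, adjusted p = 0.112). Without sgNeo replicate 5 it was 3.70 (exact permutation test, adjusted p = 0.0231).

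Both called differences could miss the threshold on leaving out a single mouse. The largest tumour missed the threshold on leaving out any of sgNeo replicates 1 to 4 or of pool replicates 4, 5, 7, 8, 10, 11, 12 and 13, with differences from 3.20 to 5.03 over all 18 mice left out in turn. The 99th percentile over the median missed it without sgNeo replicate 2 (3.46) or 3 (3.50), both with an adjusted p of 0.0647 by the exact permutation test. Among ZR mice alone, 5 against 6, the largest tumour differed by 5.26 ± 1.44 and the 99th percentile over the median by 4.34 ± 0.93, each with an adjusted p of 0.0476 by the exact permutation test. Within the pool the ZR mice lay higher than the IW mice, with largest tumours of 1.48e+06 to 1.25e+07 cells against 198662 to 4.38e+06 cells, and the ranges overlapped. No sgNeo mouse carried IW, so the inert difference cannot be computed within that series. With only the largest listing of each barcode, the 99th percentile over the median differed by 3.58 ± 0.60, past the threshold (exact permutation test, adjusted p = 0.00770). The largest inert tumour of every mouse was itself the largest listing of its barcode. Its difference of 4.04 ± 1.44 therefore could not change under this setting. Its adjusted p of 0.0265 by the exact permutation test moved only with the other tests adjusted beside it. A further setting left out every tumour whose barcode was listed in another mouse, which removed nearly all tumours of at least 100000 cells. The differences in the largest tumour and in the 99th percentile over the median were then 1.83 and 1.90 (exact permutation test, adjusted p = 0.464 for both). With the pool's Lkb1-targeted tumours, a gene that the genotype already deletes, in place of its inert tumours, they were 2.25 and 3.48 (exact permutation test, adjusted p = 0.248 and 0.0668).

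**Figure D3:**
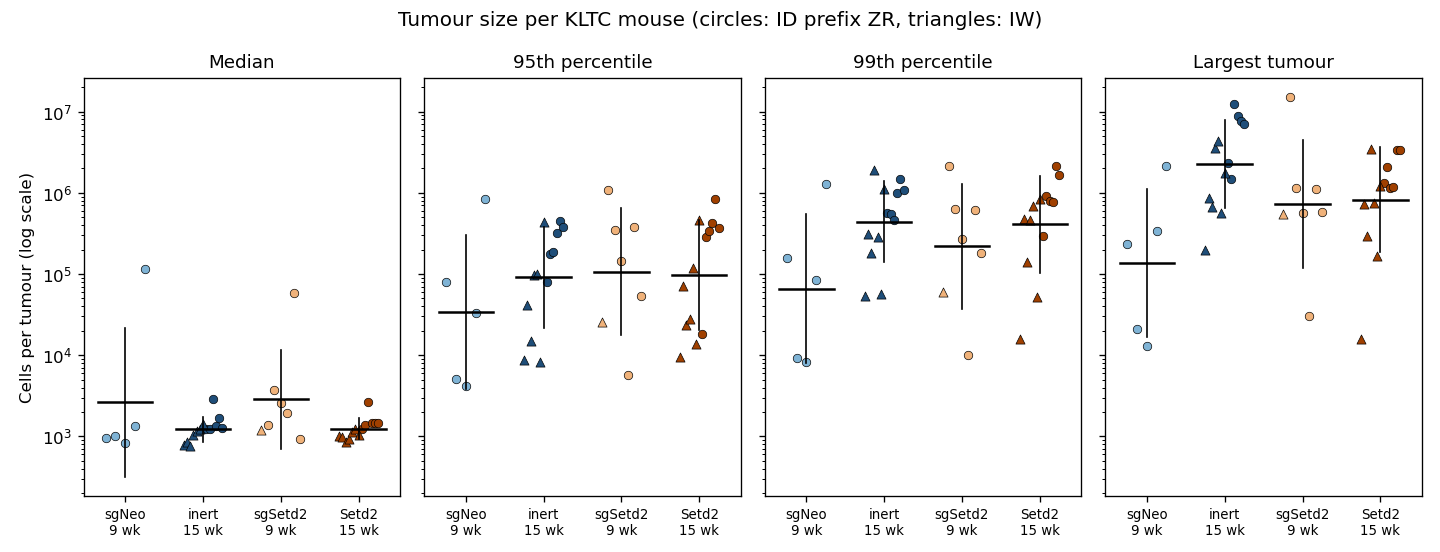
Median, 95th percentile, 99th percentile and largest tumour (cells per tumour, log scale) in each KLTC mouse for inert vectors at 9 and 15 weeks and Setd2 vectors at 9 and 15 weeks, with the geometric mean (horizontal line) and 1 SD of the log values (vertical line); circles are mice with names opening in ZR and triangles in IW. The sgNeo replicate with a median of 115533 cells and the sgSetd2 replicate with 57841 cells stand apart from all others in the left panel, and in the right panel 7 of 13 inert pool mice lie above all 5 sgNeo mice.

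The upper tail was also measured from a fixed size, as the geometric mean of all tumours of at least 10000 cells relative to 10000 cells, in mice with at least 10 such tumours. It was 4.16, 1.23, 2.45 and 14.7 in sgNeo replicates 1, 2, 4 and 5 (replicate 3 had 7 such tumours and gave no value) and 2.89 to 15.8 in the pool mice (middle value 6.58). Replicates 2 and 4 lay below every pool mouse and replicates 1 and 5 within their range. The difference was 0.98 ± 0.79 on the log2 scale, 1.98-fold, and missed the threshold (exact permutation test, 4 against 13 mice, adjusted p = 0.222). Without replicate 5 it was 1.65 (exact permutation test, adjusted p = 0.0314).

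Counted directly, tumours of at least 100000 cells were 2.66% of the listed inert tumours in sgNeo replicate 1 (95% exact binomial interval 1.93% to 3.56%), 0.810% in replicate 4 (0.520% to 1.203%) and 55.8% in replicate 5 (50.3% to 61.2%). Replicates 2 and 3 had none among 2366 and 1131 tumours, which allows shares of up to 0.127% and 0.265%. In the pool mice the share was 0.491% to 14.8% (middle value 4.93%), and every one of the 13 mice had at least 2 such tumours. Tumours of at least 1e+06 cells were listed in 1 of the 5 sgNeo mice, replicate 5 with 9 of them. In the pool the number per mouse ranged from 0 to 13, with a middle value of 2. These intervals cover counting error only.

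A further difference was noticed in the values and was not tested. The largest inert tumour held 0.520% to 3.11% of all listed inert cells of a sgNeo mouse and 3.70% to 27.8% of those of a pool mouse, with no overlap between the times. This share depends on the number of listed tumours, and the sgNeo mice had more inert tumours in the middle of their range. For Setd2 the same share was 0.632% to 10.04% at 9 weeks and 4.45% to 62.8% at 15 weeks, and the ranges overlapped.

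**Figure D4:**
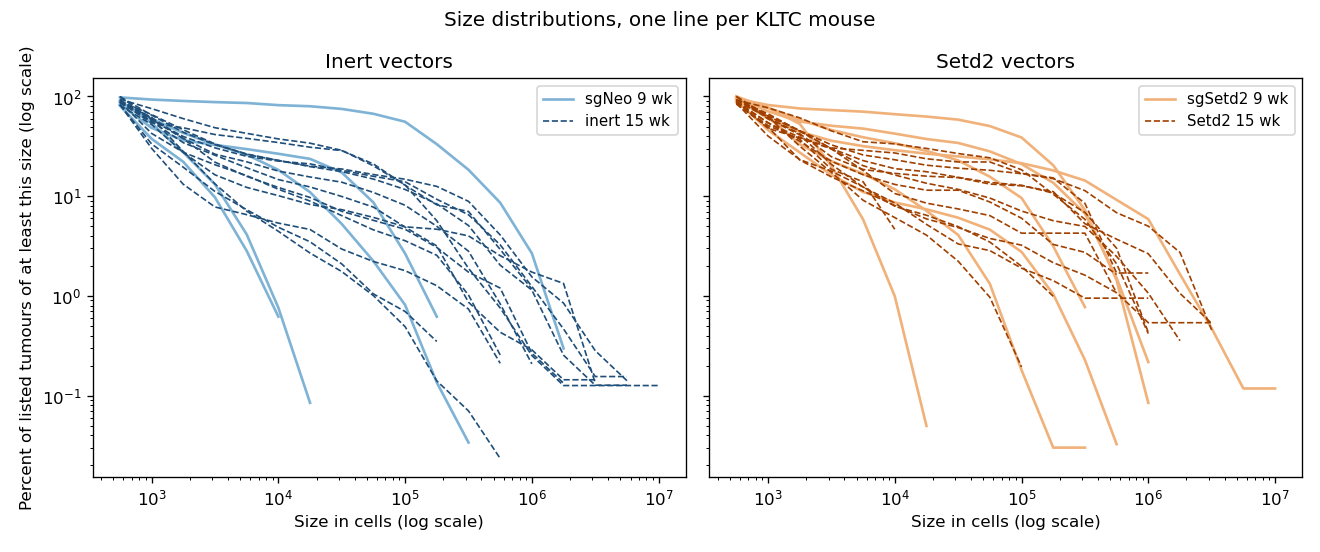
Percent of the listed tumours of a mouse that reached at least a given size (y axis, log scale) against that size in cells (x axis, log scale), 1 line per KLTC mouse, for inert vectors (left) and Setd2 vectors (right), at 9 weeks (solid) and 15 weeks (dashed). The uppermost solid line on the left is sgNeo replicate 5, with 55.8% of tumours at 100000 cells or more, and the 2 lowest end near 10000 cells; on the right the solid lines run both above and below the dashed ones.

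For the Setd2-targeted tumours none of the 11 measures passed the test between 9 and 15 weeks. The largest tumour of 6 of the 7 sgSetd2 mice lay within the range of the 15-week mice and that of replicate 2 above it, and 3 of the 7 had log-normal means above those of all 13 pool mice. The mean differences were negative for the percentiles up to the 95th and positive for the 99th percentile and the largest tumour. The sgSetd2 mice varied more among themselves than the pool mice did, most of all in the log2 median, with an SD of 2.03 against 0.43. For the 95th percentile the SDs were closer, at 2.61 and 2.26, as they were for the largest tumour, at 2.62 and 2.15.

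The median Setd2-targeted tumour held 1187, 1368, 3749, 2566, 1926, 57841 and 931 cells in sgSetd2 replicates 1 to 7 and 853 to 2679 cells in the pool mice (middle value 1240 cells). Replicates 3 and 6 lay above every pool mouse. The mean was 11.49 ± 2.03 (SD, n = 7) at 9 weeks and 10.27 ± 0.43 (SD, n = 13) at 15 weeks, a difference of -1.21 ± 0.78 that missed the threshold after adjustment (exact permutation test, p = 0.0171, adjusted p = 0.0982). It passed on leaving out sgSetd2 replicate 7 (-1.48; exact permutation test, adjusted p = 0.0384).

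The 95th percentile was 25359, 1.07e+06, 349798, 142737, 5712, 384293 and 52954 cells in replicates 1 to 7 and 9601 to 828227 cells in the pool mice (middle value 118620 cells). Replicate 2 lay above and replicate 5 below every pool mouse. The difference was -0.12 ± 1.17 (exact permutation test, adjusted p = 0.912), and its sign turned on leaving out any of 8 mice. The log-normal mean was highest in replicates 6, 2 and 3, at 319334, 171215 and 115775 cells, against 2389 to 79636 cells in the pool mice. Its difference was -1.07 ± 1.25 (exact permutation test, adjusted p = 0.476) and became 0.80 ± 1.47 with only the largest listing of each barcode.

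The largest Setd2-targeted tumour held 30252 to 1.50e+07 cells in the sgSetd2 mice (middle value 575399 cells) and 15886 to 3.43e+06 cells in the pool mice (middle value 1.195e+06 cells). The single tumour of 1.50e+07 cells in sgSetd2 replicate 2, at 9 weeks, was larger than any inert or Setd2-targeted tumour of the 13 pool mice at 15 weeks. The difference was 0.19 ± 1.16 (exact permutation test, adjusted p = 0.912), and it was -0.57 without sgSetd2 replicate 5. The expected largest of 50 tumours was 9380 to 2.15e+06 cells at 9 weeks and 42378 to 2.09e+06 cells in the 12 pool mice with at least 50 tumours. That difference was 1.31 ± 1.07 (exact permutation test, adjusted p = 0.406).

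The tail above 10000 cells had a geometric mean of 1.299 to 24.2 times 10000 cells in the 7 sgSetd2 mice and 2.69 to 23.6 times in 12 pool mice, a difference of 0.68 ± 0.59 (exact permutation test, adjusted p = 0.431). Relative to the median, the 99th percentile was 5.17 to 1580 at 9 weeks and 15.8 to 1468 at 15 weeks, a difference of 2.11 ± 1.17 (exact permutation test, p = 0.0560, adjusted p = 0.154). It passed at a minimum size of 1500 cells (2.58; exact permutation test, adjusted p = 0.0492). The 95th percentile relative to the median differed by 1.09 ± 1.15 (exact permutation test, adjusted p = 0.476) and passed at minimum sizes of 1500 cells (2.24) and 5000 cells (1.44), with adjusted p of 0.0492 and 0.0410. Within the ZR mice, 6 against 6, the differences were 1.31 ± 1.21 for the largest tumour and 2.84 ± 1.304 for the 99th percentile relative to the median (exact permutation test, adjusted p = 0.494 and 0.190).

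Tumours of at least 100000 cells were 0.180%, 21.4%, 21.0%, 9.60%, 0%, 38.8% and 2.76% of the tumours in sgSetd2 replicates 1 to 7, and 0% to 18.4% in the pool mice (middle value 6.01%). Replicate 5 had none among 2019 tumours, which allows up to 0.149%. The pool mouse with none had 43 tumours, which allows up to 6.98%. Tumours of at least 1e+06 cells numbered 50 in sgSetd2 replicate 2, 1 each in replicates 3 and 6 and none in the other 4 mice. In sgSetd2 replicate 1, 67.8% of all listed cells lay in tumours whose barcode was listed at a larger size in another mouse, and in replicate 5 this was 61.9%. In the other 5 sgSetd2 mice it was 0.699% to 11.9%. Among the sgNeo mice it was highest in replicates 2 and 3, at 49.8% and 64.0%, which are the same mice that lay below every pool mouse. The part of shared barcodes in the sizes of these mice was not tested beyond the settings given here.

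**Figure D5:**
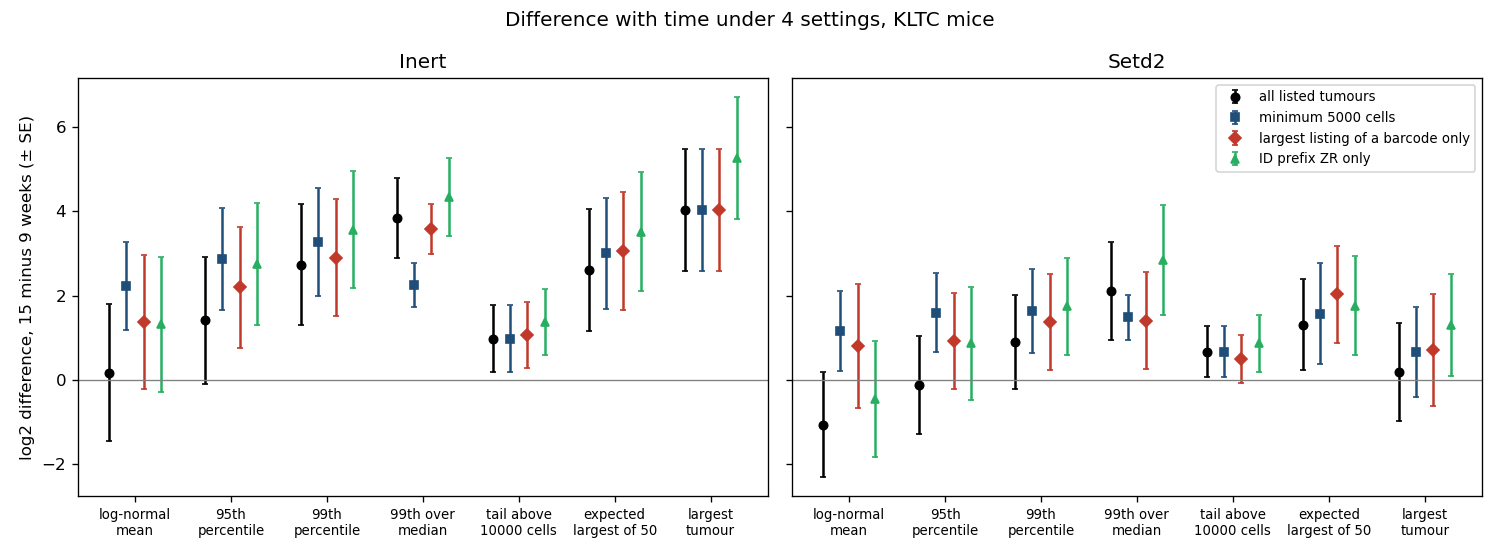
Difference in mean log2 value between 15 and 9 weeks (y axis, 15 minus 9 weeks, with SE over mice) for 7 measures of tumour size, inert vectors (left) and Setd2 vectors (right), under 4 settings. The inert differences for the largest tumour (4.04 with all listed tumours) and the 99th percentile over the median (3.83) lie farthest from 0, whereas the Setd2 log-normal mean runs from -1.07 with all listed tumours to 1.15 at a minimum of 5000 cells.

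The choice of the smallest size bore on the bulk measures. With tumours of at least 5000 cells alone, the inert log-normal mean differed by 2.23 ± 1.03 and the inert 95th percentile by 2.87 ± 1.21, both past the threshold (exact permutation test, adjusted p = 0.0422 and 0.0231). The expected largest of 50 inert tumours, 3.001 ± 1.31, passed as well (exact permutation test, adjusted p = 0.0231). For Setd2 at that minimum the log-normal mean differed by 1.15 ± 0.95 and the 95th percentile by 1.599 ± 0.94, and neither passed (exact permutation test, adjusted p = 0.262 and 0.117).

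Whether Setd2-targeted tumours exceeded inert ones was then set side by side at the 2 times. Within the 13 pool mice the Setd2 log-normal mean was 0.12 ± 0.50 (SD, n = 13) log2 above the inert one, with 9 mice above 0. Between the sgSetd2 and sgNeo mice at 9 weeks it was 1.36 ± 1.90 (SE) above. The same 13 pool mice served both vectors' comparisons with 9 weeks. The 2 values differ by -1.24 ± 1.91, less than 1 SE, and this difference was not tested. For the expected largest of 50 tumours the values were 0.20 ± 0.64 (SD, n = 12) at 15 weeks and 1.74 ± 1.69 (SE) at 9 weeks. Both vectors lie in the same mouse at 15 weeks and in different mice at 9 weeks. With only the largest listing of each barcode, a setting added after the values were seen, the log-normal mean of Setd2 was 1.11 ± 0.98 (SD, n = 13) above the inert one at 15 weeks, in 10 mice, and 1.69 ± 1.84 (SE) above at 9 weeks. Without tumours listed elsewhere at 10 times their size the values were 1.07 ± 0.82 (SD, n = 13) and 1.61 ± 1.89 (SE). Both settings removed unequal parts of the 2 targets. In the pool the first kept 37.4% of Setd2-targeted and 54.9% of inert tumours, and the second dropped 44.0% and 26.4%. At 9 weeks the kept parts were 43.6% and 46.6%, and the dropped parts 32.6% and 17.9%. How far this unequal removal moved the values was not tested.

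Within the pool, mice with large inert tumours also had large Setd2-targeted tumours. Over the 13 mice the 2 log-normal means correlated with Pearson's r of 0.96 (permutation p = 2e-05, adjusted over 3 relations 6e-05) and Spearman's rho of 0.95 (p = 1e-05, the smallest that 100000 resamples can give). Without the 2 mice farthest from the median r was 0.95, and within the IW and ZR mice it was 0.96 and 0.97 (exact permutation p = 0.00456 and 0.00556). With only the largest listing of each barcode r was 0.97 (permutation p = 2e-05), and at a minimum of 5000 cells it was 0.77 over 12 mice (permutation p = 0.00369), settings that were also added after the values were seen. Both means come from the same library and lung, so anything that scales a whole mouse enters both. The inert log-normal mean showed no relation that passed with the number of listed tumours (r = -0.19, permutation p = 0.547) or with the smallest listed size (r = 0.17, permutation p = 0.595). The first was 0.52 without the 2 farthest mice, and the second was -0.84 within the 6 ZR mice (exact permutation p = 0.0403, not adjusted).

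The same times and vectors were also followed in p53-deficient KPTC mice, with 3 mice for each vector at 9 weeks and 12 pool mice at 15 weeks. There the inert log-normal mean differed by 0.06 ± 0.56 between the times, against 0.18 ± 1.62 in KLTC. The inert 95th percentile differed by 0.40 ± 0.55 in KPTC and 1.41 ± 1.52 in KLTC, and the Setd2 95th percentile by -0.64 ± 0.94 and -0.12 ± 1.17. None of the 6 tested differences between the genotypes passed, with values from -0.31 ± 1.45 for the Setd2 log-normal mean to 1.01 ± 1.61 for the inert 95th percentile (exact permutation of genotype within each week, adjusted p = 0.974 for all 6). The SE of these differences ran from 0.65 to 1.71 on the log2 scale, so the comparison does not show that the genotypes were alike.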

How the data were processed

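The labels describe 1 library per mouse, in which barcodes were amplified by PCR from whole-lung DNA and sequenced. The deposited table gives a size for each barcode and target in each mouse, in cells per tumour, as the authors computed it. The size standard, the grouping of reads into barcodes, the aligner and any correction for PCR are not stated in the sources used here. The table holds no reads, and its smallest size is 500.4 cells. Inert vectors are merged under 1 label there. The labels of groups and weeks were used as given, and replicates were numbered in accession order, which pairs no mice.

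The members, measures and lists were chosen with earlier results of these data known. For each mouse 11 measures were computed on the log2 scale from tumours of at least 500 cells: 5 percentiles (50th, 75th, 90th, 95th and 99th), the 95th and 99th over the median, the log-normal mean, the tail above 10000 cells, the largest tumour and the expected log2 size of the largest of 50 tumours drawn without replacement, in closed form. The mouse was the replicate. Group means were compared by two-sided exact permutation of mouse labels, with Benjamini-Hochberg adjustment over the 22 tests of both vectors and a threshold of 0.05. Of these tests 2 passed, and 6 had an unadjusted p below the threshold. Genotypes were compared by exact relabelling within each week, adjusted over 6 tests. Only Inert, Setd2 and Lkb1 were named among the targets, and the latter 2 match Setd2 and Stk11 (synonym Lkb1) of RefSeq. Nothing in the labels says whether mice shared a litter or a virus batch.

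In all 41 other settings were tried, of which 25 leave out 1 mouse each. The comparison of genotypes was recomputed under 3 of these settings, none of which leaves out a mouse. Keeping only the largest listing of a barcode, and the other settings for Setd2 over inert within mice and for their correlation, were added after the data were seen. The procedure was tested on simulated data. Python 3.11.15 with numpy 2.4.6, pandas 2.3.3, scipy 1.17.1 and matplotlib 3.10.9 was used.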

Additional observations from a re-analysis of the deposited data

Results flagged for a closer look

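Of 24 sets of values over 4 to 10 mice examined for a mouse far from the others, 2 had one, where chance alone gives about 1 in 20. In sgNeo replicate 5 the median inert tumour was 16.82 on the log2 scale, and its gap to the nearest mouse was 0.904 of the range of the 5 sgNeo mice. This mouse had the fewest listed tumours of its group, 337, and 91.4% of them were the largest listing of their barcode in any mouse. In sgSetd2 replicate 6 the median Setd2-targeted tumour was 15.82 on the log2 scale, with a gap of 0.663 of the range of the 7 sgSetd2 mice. It had 1186 listed tumours, of which 72.3% were the largest listing of their barcode. Why these mice stand apart was not tested.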

How the results depend on the processing

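Differences are log2, 15 minus 9 weeks. Over the settings other than leaving out a mouse, the inert 95th and 99th percentiles, tail and expected largest tumour and the Setd2 expected largest tumour kept their sign. At a minimum of 1000 cells the Setd2 95th percentile turned to 0.47. At 1500 cells it was 0.79, the inert 75th and Setd2 90th percentiles turned to 0.76 and 0.27, and the inert expected largest passed at 3.22. At 5000 cells the inert log-normal mean (2.23), 95th percentile (2.87) and expected largest (3.001) passed, the inert 50th and 75th percentiles turned to 1.02 and 1.97, and the Setd2 log-normal mean and 50th, 75th, 90th and 95th percentiles to 1.15, 0.16, 0.63, 1.31 and 1.599. Without tumours listed elsewhere at 10 times their size, the inert 75th percentile turned to 0.12, and the Setd2 log-normal mean and 75th, 90th and 95th percentiles to 0.69, 0.040, 0.45 and 0.82. Without every shared barcode, the inert 75th percentile turned to 0.031, the Setd2 95th percentile to 0.075 and the Setd2 tail to -0.20. With the largest listing only, the inert 75th percentile turned to 0.26, and the Setd2 log-normal mean and 75th, 90th and 95th percentiles to 0.80, 0.058, 0.51 and 0.93. Among ZR mice the Setd2 90th and 95th percentiles were 0.61 and 0.87, within the name series 0.55 and 0.85, and the Setd2 95th was 0.033 with at least 100 tumours per mouse. The inert 50th percentile turned to 0.28 with the median over mice, and the inert log-normal mean to -0.090 with Lkb1 rows. Against KPTC, the Setd2 log-normal mean turned to 0.051 at 5000 cells, 1.26 without matched tumours and 0.97 with the largest listing only, and the Setd2 tail to -0.28 with that last setting. Each cause was not tested.

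Leaving out 1 mouse gave ranges of -0.53 to 1.58 for the inert log-normal mean, 0.66 to 2.56 for the inert 95th percentile, 0.45 to 1.65 for the inert tail and 1.85 to 3.70 for the inert expected largest. For Setd2 they were -1.63 to -0.45, -0.83 to 0.43, 0.31 to 1.02 and 0.57 to 1.88. The other signs that turned were those of the inert 50th (-1.51 to 0.27), 75th (-1.74 to 0.11) and 90th (-0.29 to 1.52) percentiles, the Setd2 90th percentile (-1.08 to 0.053) and the Setd2 largest tumour (-0.57 to 0.92). The largest inert tumour also missed the threshold without each mouse's largest tumour (3.30, adjusted p = 0.0719) and with the median over mice (3.32, adjusted p = 0.135), and the 99th percentile over the median with the latter (5.30, adjusted p = 0.0719), by exact permutation. The number of mice and their spread limit the precision. No paired analysis was possible because replicate numbers are only names.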
